A study of Mus musculus with 12 samples.

Results

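The jejunum holds B lineage cells in different places and states. Naive and follicular B cells sit in lymphoid follicles and carry the B cell receptor with its co-receptors, whereas plasma cells, which secrete IgA, are spread through the lamina propria and no longer make most of the surface proteins of a B cell. Follicles form patches along the gut, so a given piece of tissue may or may not include one. The 32 genes described here were taken through the RefSeq accession of each probe and comprise 26 genes of naive or follicular B cells (the B cell members) and 6 of plasma cells (Jchain, Mzb1, Tnfrsf17, Prdm1, Xbp1 and Irf4), out of 46523 genes or unnamed probes on the array. All 32 were on the array, with 48 probes. Of these genes 31 entered the tests, the exception being Blk, a kinase of the Src family, whose probe was not well above background on any array. On all 12 arrays 26 of the 32 were well above background.

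Total RNA was measured with 1-colour Agilent arrays, 1 per male mouse, in 4 groups of 3. The first group was IAP knockout (Akp3-/-) mice on IIAEK, the second was the same knockout on vehicle, the third was wild-type mice on IIAEK and the fourth was wild-type mice on vehicle. IAP is intestinal alkaline phosphatase, and IIAEK is a pentapeptide known for lowering cholesterol, given by mouth at 600 mg/kg once a day for 14 days from 7 weeks of age in 5 g/L carboxymethylcellulose, which was the vehicle. Titles and design text give 14 days, while the source label of the IIAEK samples writes weeks. All mice were fasted for 8 h before the jejunum was taken. The strain and the tissue piece that was sampled are not given in the sources used here. The design asks whether the peptide acts differently on the jejunum when Akp3 is missing.

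Each level below is the log2 processed signal minus that of the 75th percentile probe on its own array, so 0 is the brightness of a probe at that percentile. Levels of different genes come from different probes and are not compared with each other. Between 60.0% and 67.1% of spots were well above background, and no spot was saturated. Arrays lay on 2 slides of 6. Akp3, the targeted gene, was not well above background on any of the 6 knockout arrays, but whether its probe lies in the deleted part is not given in the sources used here. On the wild-type IIAEK arrays its level was -3.89, -1.11 and -1.24. On the arrays labelled wild-type vehicle it was -3.30, -3.95 and -5.94, and the last, replicate 3, was not well above background and lay inside the knockout range of -6.83 to -5.48. Each array was further set against the 20 genes with the largest difference between the genotypes that did not overlap on the other 11 arrays. The array labelled wild-type vehicle 3 lay nearer to the knockout mean in 10 of those 20, against 1 to 9 of 20 for the other wild-type arrays, and knockout arrays lay nearer to the wild-type mean in 2 to 10 of 20. Pam, a peptide-amidating enzyme chosen after its values were seen, was at -1.05 on that array, against -0.88 to 0.13 on the knockout arrays and -2.95 to -2.54 on the other wild-type arrays. Glrp1, chosen in the same way, leaned to wild type. It was at -4.47 on that array, against -7.48 to -5.83 on the knockout arrays and -4.76 to -3.98 on the other wild-type arrays. The genotype of that array is therefore not settled by these values, and the member differences, and the medians and p-value counts of the B cell members, that rest on it are given with and without it.

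Promoter windows of 4 members are printed because the B cell members moved together across arrays. The windows run from 250 bases before to 50 after the RefSeq start, build GRCm38.p6, in the direction of the gene, and RefSeq gave one for 27 of the 32 members. Capitals mark the motif named for each line, on either strand.
Vpreb3, octamer, chr10:75948050-75948349, plus strand: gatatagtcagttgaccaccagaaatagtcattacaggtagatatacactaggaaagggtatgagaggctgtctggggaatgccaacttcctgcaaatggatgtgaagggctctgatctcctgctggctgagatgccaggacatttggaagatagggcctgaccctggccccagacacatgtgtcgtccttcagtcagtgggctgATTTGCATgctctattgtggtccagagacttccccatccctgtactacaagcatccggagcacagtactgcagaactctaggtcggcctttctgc
Fcrl1, PU box, chr3:87376137-87376436, plus strand: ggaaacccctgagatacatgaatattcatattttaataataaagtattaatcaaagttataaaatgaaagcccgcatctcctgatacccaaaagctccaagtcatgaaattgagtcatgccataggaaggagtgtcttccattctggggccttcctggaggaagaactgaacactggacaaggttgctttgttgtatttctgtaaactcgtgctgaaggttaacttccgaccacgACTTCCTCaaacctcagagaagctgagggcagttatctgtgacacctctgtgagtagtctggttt
Ltb, NF-kB partial site, chr17:35194257-35194556, plus strand: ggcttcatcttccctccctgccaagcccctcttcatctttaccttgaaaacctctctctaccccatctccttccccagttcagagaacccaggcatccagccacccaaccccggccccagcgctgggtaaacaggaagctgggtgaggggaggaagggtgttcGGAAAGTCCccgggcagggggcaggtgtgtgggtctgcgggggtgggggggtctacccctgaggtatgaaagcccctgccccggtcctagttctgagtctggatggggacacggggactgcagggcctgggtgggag
Jchain, none of the 5 motifs, chr5:88527848-88528147, minus strand: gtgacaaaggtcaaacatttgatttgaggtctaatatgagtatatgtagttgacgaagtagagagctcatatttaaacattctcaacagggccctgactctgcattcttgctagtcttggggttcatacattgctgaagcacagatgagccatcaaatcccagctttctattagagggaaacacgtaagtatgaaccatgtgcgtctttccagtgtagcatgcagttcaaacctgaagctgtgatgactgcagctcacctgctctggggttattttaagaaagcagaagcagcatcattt

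The motifs were searched on both strands. The octamer ATGCAAAT, the motif of the Oct factors with which Pou2af1 works, was in the windows of Vpreb3 and Blnk and in 1.74% of all 32851 windows. The PU box GAGGAAGT, which PU.1 and Spi-B bind, was in those of Cd37, Cd72 and Fcrl1 and in 3.20% of all windows. The NF-kB partial site GGNNTTTCC was in Ebf1, Fcrl1, Ltb and Tnfrsf13b and in 5.82% of all, and the EBF core CCCNNGGGA was in Cd22 and in 6.56% of all. The element TGACGTGG, bound by Xbp1 in the unfolded protein response, was in Pou2af1 and in 0.676% of all windows.

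Levels of the B cell members fell into separate high and low sets of arrays. Ms4a1, which encodes the surface protein CD20, was at -4.48, -2.75 and -4.42 in knockout IIAEK jejunum, against 1.15, 1.60 and 1.06 in knockout vehicle jejunum. In wild type it was at -4.26, 1.75 and 0.29 on IIAEK, against -3.37, -4.44 and 1.69 on the vehicle arrays. Thus 6 arrays were high in Ms4a1 (knockout vehicle 1 to 3, wild-type IIAEK 2 and 3 and the array labelled wild-type vehicle 3) and 6 were low. The slides held 2 of the 6 high arrays on slide 1 and 4 on slide 2. Besides Ms4a1 itself, 17 B cell members had every one of these 6 arrays above every low array, against 0 of the 6 plasma cell members and 0.606% of all other genes tested. Because the sets were read from the levels themselves, this is a description and no test was made of it. In bulk tissue, fewer cells of a type and less RNA per cell cannot be told apart.

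**Figure D1:**
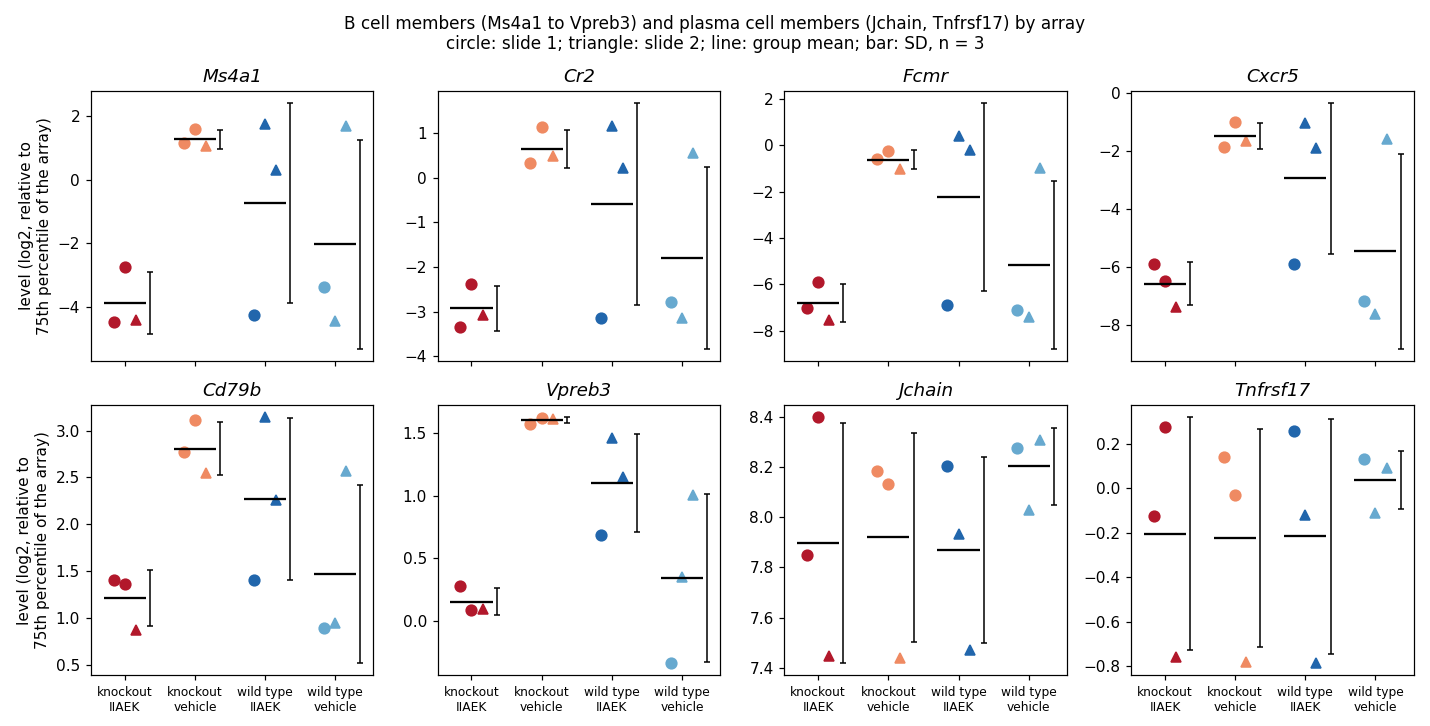
Levels of 8 members on each array (y axis, log2, scaled by each array's 75th percentile) by group (x axis, knockout IIAEK, knockout vehicle, wild-type IIAEK and wild-type vehicle), with circles for slide 1, triangles for slide 2, lines for group means and bars for SD, n = 3. Ms4a1 lies between -4.48 and -2.75 in knockout IIAEK and between 1.06 and 1.60 in knockout vehicle, both wild-type groups span both ranges, and Jchain overlaps in all 4 groups. The low points of Fcmr and Cxcr5, drawn as measured, were not well above background.

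In knockout mice, most B cell members had lower levels on IIAEK than on vehicle, and the plasma cell members overlapped between both groups. Ms4a1 differed by -5.15 on the log2 scale (SE 1.59). Cr2, complement receptor 2 and part of the co-receptor of the B cell receptor, was at -3.34, -2.38 and -3.07 on IIAEK, against 0.32, 1.13 and 0.50 on vehicle, a difference of -3.58 (SE 1.07). Neither gene overlapped between the groups. Cd79b, a signalling chain of the B cell receptor, was at 1.40, 1.36 and 0.87 on IIAEK, against 2.77, 3.11 and 2.55 on vehicle (-1.60, SE 0.47). Its partner chain Cd79a differed by -0.78 (SE 0.35), with levels of -3.64, -3.82 and -3.51 on IIAEK and -3.30, -2.66 and -2.68 on vehicle. Both chains lay lower on every IIAEK array than on any vehicle array, by a smaller step in Cd79a.

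A set of receptors was detected on knockout vehicle arrays and on none of the knockout IIAEK arrays. Fcmr, the Fc receptor for IgM, was at -0.59, -0.23 and -1.03 on knockout vehicle arrays and at least 21.1-fold lower on IIAEK. Cxcr5, the receptor that guides B cells into follicles, was at -1.87, -1.01 and -1.65 on vehicle and at least 11.4-fold lower on IIAEK. Fcer2a, the low-affinity IgE receptor CD23, was at -2.12, -1.35 and -2.94 on vehicle and at least 7.37-fold lower on IIAEK. These folds are lower bounds, set between the mean of the vehicle arrays and the lowest signal that passed as well above background. All 3 genes were detected on the same 6 arrays that were high in Ms4a1 and on no other.

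Receptors for survival factors differed by unequal amounts. Tnfrsf13c, the BAFF receptor, was at -1.99, -2.25 and -2.91 in knockout IIAEK jejunum, against 0.08, 0.58 and 0.10 in knockout vehicle jejunum (-2.63, SE 0.70). Tnfrsf13b, the receptor TACI, was at -2.81, -2.61 and -3.01, against -2.50, -2.10 and -2.18 (-0.55, SE 0.19). In neither gene did the groups overlap. Tnfrsf17, the receptor BCMA of plasma cells, was at -0.13, 0.28 and -0.76 on IIAEK, against 0.14, -0.03 and -0.78 on vehicle (0.020, SE 0.33), and here the groups overlapped throughout.

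Of 6 further inhibitory, Fc receptor-like and tetraspanin members, 5 were lower on IIAEK at an unadjusted p under 0.05, against 2.29% of all genes. None of the 5 passed after adjustment, and Cd22 was not among them. Siglecg, a sialic acid receptor that restrains B cell signalling, was at -4.78, -4.65 and -5.35 on IIAEK, against -2.86, -2.63 and -2.72 on vehicle (-2.19, SE 0.46). Only 1 of these IIAEK arrays had it well above background, so the size of the difference is uncertain. Its other probe was well above background on 1 of 12 arrays. Fcrl1, an Fc receptor-like protein of B cells, was at -4.75, -3.81 and -5.83, against -1.74, -1.47 and -1.90 (-3.09, SE 0.72). Of the IIAEK arrays, 2 had its signal well above background on this probe, 1 on another and 0 on the third, so no difference is given for those probes. In both genes every IIAEK array lay below every vehicle array. Fcrla differed by -1.25 (SE 0.45) and Cd72, a co-receptor that damps signalling, by -0.52 (SE 0.20). Cd37, a tetraspanin of mature B cells, was at -1.27, -1.23 and -1.29, against -0.10, 0.20 and 0.11 (-1.33, SE 0.36). The result for Cd22, a further inhibitory receptor, depended on the probe. The brightest probe gave -1.17, -1.01 and -0.30 on IIAEK, against -0.99, -0.52 and -0.15 on vehicle, which overlap. A probe to another Cd22 accession, detected on 11 arrays, gave -4.31, -3.66 and -5.38, against -2.63, -1.79 and -2.85, and one more probe was not above background on any array.

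Signalling adaptors and transcription factors showed mostly smaller differences, and Blnk, Pax5 and the brighter probe of Ebf1 overlapped between the groups. Vpreb3, a protein of the B lineage linked to assembly of the receptor, had the smallest unadjusted p of the members (0.000348), with levels of 0.28, 0.09 and 0.09 on IIAEK, against 1.58, 1.62 and 1.61 on vehicle (-1.45, SE 0.29). Bank1, a scaffold, differed by -1.03 (SE 0.38) and Btk, the kinase downstream of the receptor, by -0.54 (SE 0.21), whereas the adaptor Blnk was at 3.59, 3.03 and 2.69, against 3.39, 3.43 and 3.29 (-0.27, SE 0.28). Spib, an Ets factor, differed by -1.51 (SE 0.41), Ebf1, a factor of early B cell commitment, by -0.84 (SE 0.31) and the Oct coactivator Pou2af1 by -0.57 (SE 0.20). The dimmer Ebf1 probe, detected on all 12 arrays, did not overlap, at -3.60, -3.72 and -3.11 on IIAEK, against -2.41, -2.36 and -2.25 on vehicle. Pax5, the factor that maintains B cell identity, was at -2.99, -3.29 and -2.15 on IIAEK, against -2.94, -3.15 and -3.14 on vehicle (0.26, SE 0.27), and its 1 probe did not separate the groups or the 6 arrays high in Ms4a1. Ltb, the lymphotoxin chain that sustains follicles, differed by -1.21 (SE 0.48), and Fermt3, an integrin activator of blood cells, by -0.92 (SE 0.25).

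Plasma cell members did not separate knockout mice on IIAEK from those on vehicle. Jchain, the joining chain of IgA and IgM polymers, was at 7.85, 8.40 and 7.45 in knockout IIAEK jejunum, against 8.19, 8.13 and 7.44 in knockout vehicle jejunum (-0.022, SE 0.28). Mzb1, a chaperone of immunoglobulin assembly, differed by 0.098 (SE 0.27), and Prdm1, the factor that drives plasma cell fate, by -0.039 (SE 0.18). Xbp1, the factor of the unfolded protein response that epithelial cells express too, differed by 0.16 (SE 0.14), and Irf4 by -0.32 (SE 0.26). The sign for Irf4 depended on the probe, since a dimmer one, detected on all 12 arrays, gave 0.075. All 6 overlapped between the groups, which does not show that their levels were equal.

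Limma's moderated test on all 12 arrays, with Benjamini-Hochberg adjustment over 27565 genes, called 0 of the members in knockout mice (0% of all genes), with a smallest adjusted p of 0.893. At an unadjusted p under 0.05, 22 of the 26 B cell members were lower, against 2.29% of all genes, and 0 of the 6 plasma cell members were. Some members passed the filter on low signal through the groups in which they were high. Among genes detected on all 12 arrays, 17 of 20 B cell members and 0 of 6 plasma cell members were lower, against 1.96% of such genes. In 21 B cell members and 0 plasma cell members every IIAEK array lay below every vehicle array, against 3.06% of all genes. The 21 include Fcmr, Cxcr5 and Fcer2a. These passed the filter only through the knockout vehicle arrays in which they were high, so their place in the count supports nothing. The median difference was -1.23 for the B cell members, -0.00080 for the plasma cell members and 0.022 over all genes. Without knockout vehicle replicate 2 the count of 22 became 14, while without the array labelled wild-type vehicle 3, which enters only through the spread, it stayed at 22. Here and below, the share of all genes was not computed for counts made without some arrays. Those counts therefore have no background to be set against.

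The spread shared by the 12 arrays includes that of the wild-type groups, which held high and low arrays side by side. With the 6 knockout arrays fitted alone, limma called 14 genes (0.0508% of all) at an adjusted p under 0.05, and 7 of them were members that fell on IIAEK. Among genes detected on all 12 arrays the calls were 7 (0.0284% of such genes), and 4 of them were members, Cr2 and Ms4a1 (limma's adjusted p = 0.0132 each), Tnfrsf13c (0.0361) and Vpreb3 (0.0391). The other 3 were Fcmr, Cxcr5 and Siglecg, and the first 2 of these passed the filter only through the knockout vehicle arrays in which they were high, so their calls support nothing. Siglecg was well above background on only 1 knockout IIAEK array, so the size of its difference is uncertain. That fit leaves out the variation seen among wild-type mice. Within slide 1, where 2 arrays stood in each knockout group, the median difference of the B cell members was -1.08, and within slide 2, with 1 array in each, it was -1.46.

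**Figure D2:**
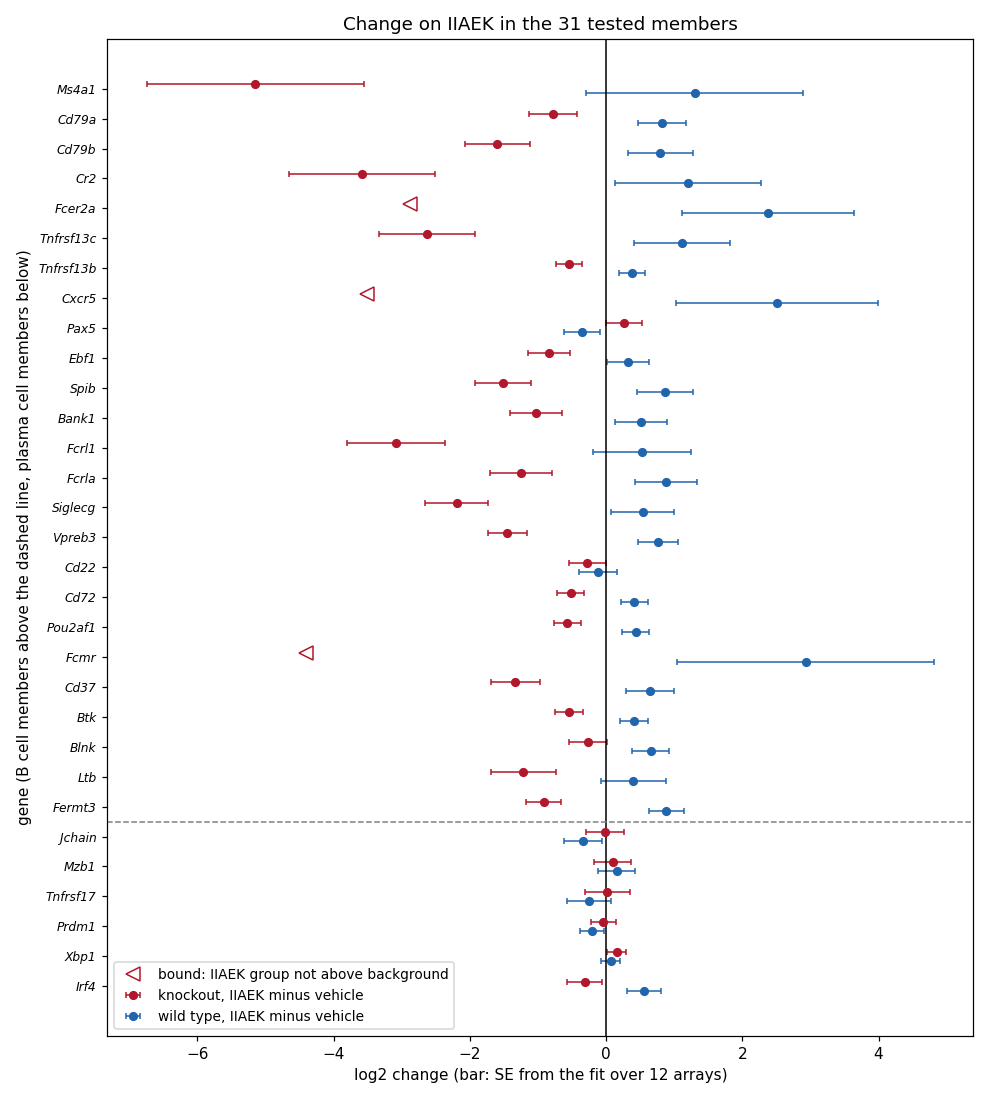
Log2 difference between IIAEK and vehicle (x axis, bars SE from the fit over 12 arrays) for the 31 tested members (y axis) in knockout (red) and wild type (blue). Open triangles mark the least decrease, on the processed signal, of Fcmr, Cxcr5 and Fcer2a, which were not well above background on any knockout IIAEK array. In knockout the other B cell members run between -5.15 and 0.26, and the plasma cell members lie between -0.32 and 0.16.

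In wild-type mice the B cell members were on average higher on IIAEK, with wide spread inside both groups. Fcmr was at 0.39 and -0.18 on wild-type IIAEK 2 and 3 and at -0.97 on the array labelled wild-type vehicle 3, and it was not well above background on the other 3 arrays. Cxcr5 behaved likewise, at -1.05 and -1.91 on IIAEK 2 and 3 and at -1.60 on the array labelled vehicle 3. Each group thus held both high and low arrays. Cd79b was at 1.40, 3.14 and 2.26 on IIAEK, against 0.90, 0.95 and 2.57 on the vehicle arrays (0.80, SE 0.47). Without the array labelled wild-type vehicle 3 the difference was 1.35, and without wild-type IIAEK 2 it was 0.36. Fermt3 was at -3.00, -2.15 and -2.27, against -3.85, -3.06 and -3.18 (0.89, SE 0.25), and was the only B cell member with every IIAEK array above every vehicle array. Irf4, which also acts in activated B cells and T cells, was at -0.70, -0.61 and -0.76 on IIAEK, against -1.20, -1.22 and -1.31 (0.56, SE 0.26), also without overlap. Without the array labelled wild-type vehicle 3 these differences were 0.98 for Fermt3 and 0.52 for Irf4. Jchain was at 8.20, 7.93 and 7.47, against 8.27, 8.03 and 8.31 (-0.33, SE 0.28, and -0.28 without the array labelled wild-type vehicle 3).

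The same limma fit called 0 members (0% of all genes) in wild type, with a smallest adjusted p of 0.373. At an unadjusted p under 0.05, 5 B cell members were higher (Fermt3, Vpreb3, Blnk, Cd79a and Pou2af1) and 0 plasma cell members were, against 5.83% of all genes. Groups that did not overlap, with IIAEK higher, were found in 1 B cell and 1 plasma cell member, against 10.7% of all genes. The median difference was 0.66 for the B cell members, -0.072 for the plasma cell members and -0.055 over all genes. Single arrays decided the count. It was 17 without the array labelled wild-type vehicle 3 and 17 without wild-type IIAEK 1, and it was 1 without wild-type vehicle 1, wild-type IIAEK 2 or wild-type IIAEK 3 and 3 without wild-type vehicle 2. The share of all genes under these settings was not computed. The median was 0.96 without the array labelled wild-type vehicle 3, 0.9998 without wild-type IIAEK 1 and 0.35 without wild-type IIAEK 2. Within slide 1 it was 0.23 and within slide 2 it was 0.78, while normexp background correction gave 0.41.

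Smooth muscle genes, markers of the muscle layers of the gut wall, differed in the same direction. In wild type 7 of 10 were higher on IIAEK at an unadjusted p under 0.05 and 0 lower (median 0.90), against 5.83% of all genes higher. On vehicle 6 of 10 were higher in knockout than in wild type (median 0.67), against 4.76% of all genes. For the interaction 5 of 10 had a lower value in knockout (median -0.88), against 5.63% of all genes. In knockout mice, IIAEK against vehicle, 0 of 10 differed in either direction (median -0.0013). Their summed signal, relative to the 75th percentile, was 149 to 233 in knockout IIAEK, 158 to 203 in knockout vehicle, 166 to 268 in wild-type IIAEK and 90.4 to 149.7 on the arrays labelled wild-type vehicle. Of 6 tested genes of adipose tissue and mesentery, 0 passed an unadjusted p under 0.05 in these comparisons, with medians of 1.78 for IIAEK in wild type, 2.66 for the genotypes on vehicle and -1.12 for IIAEK in knockout. Summed adipose signal was 31.9 to 81.1 in knockout IIAEK, 45.1 to 153.6 in knockout vehicle, 13.8 to 54.9 in wild-type IIAEK and 24.3 to 59.9 on the arrays labelled wild-type vehicle. The part of either tissue in the member results was not tested.

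The difference between genotypes in the response to IIAEK was tested directly as an interaction. The interaction was -6.46 (SE 2.25) for Ms4a1, -4.79 (SE 1.51) for Cr2, -2.39 (SE 0.67) for Cd79b, -2.21 (SE 0.41) for Vpreb3 and 0.31 (SE 0.39) for Jchain. Without the array labelled wild-type vehicle 3 these were -8.32 for Ms4a1, -5.96 for Cr2, -2.94 for Cd79b, -2.54 for Vpreb3 and 0.26 for Jchain. Limma called 0 members (0% of all genes), with a smallest adjusted p of 0.303 among the members and 0.166 over all genes. At an unadjusted p under 0.05, 23 of 26 B cell members and 1 of 6 plasma cell members, Irf4 at -0.87 (SE 0.36, and -0.84 without the array labelled wild-type vehicle 3), had a lower value in knockout, against 5.63% of all genes. The dimmer Irf4 probe gave -0.50. It was not tested, and its value without the array labelled wild-type vehicle 3 was not computed. The 23 include Fcmr, Cxcr5 and Fcer2a. These passed the filter only through the knockout vehicle arrays in which they were high, so their calls support nothing. The median was -1.89 for the B cell members, 0.13 for the plasma cell members and 0.066 over all genes. Without the array labelled wild-type vehicle 3 the median of the B cell members was -2.16 and the count was 22.

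**Figure D3:**
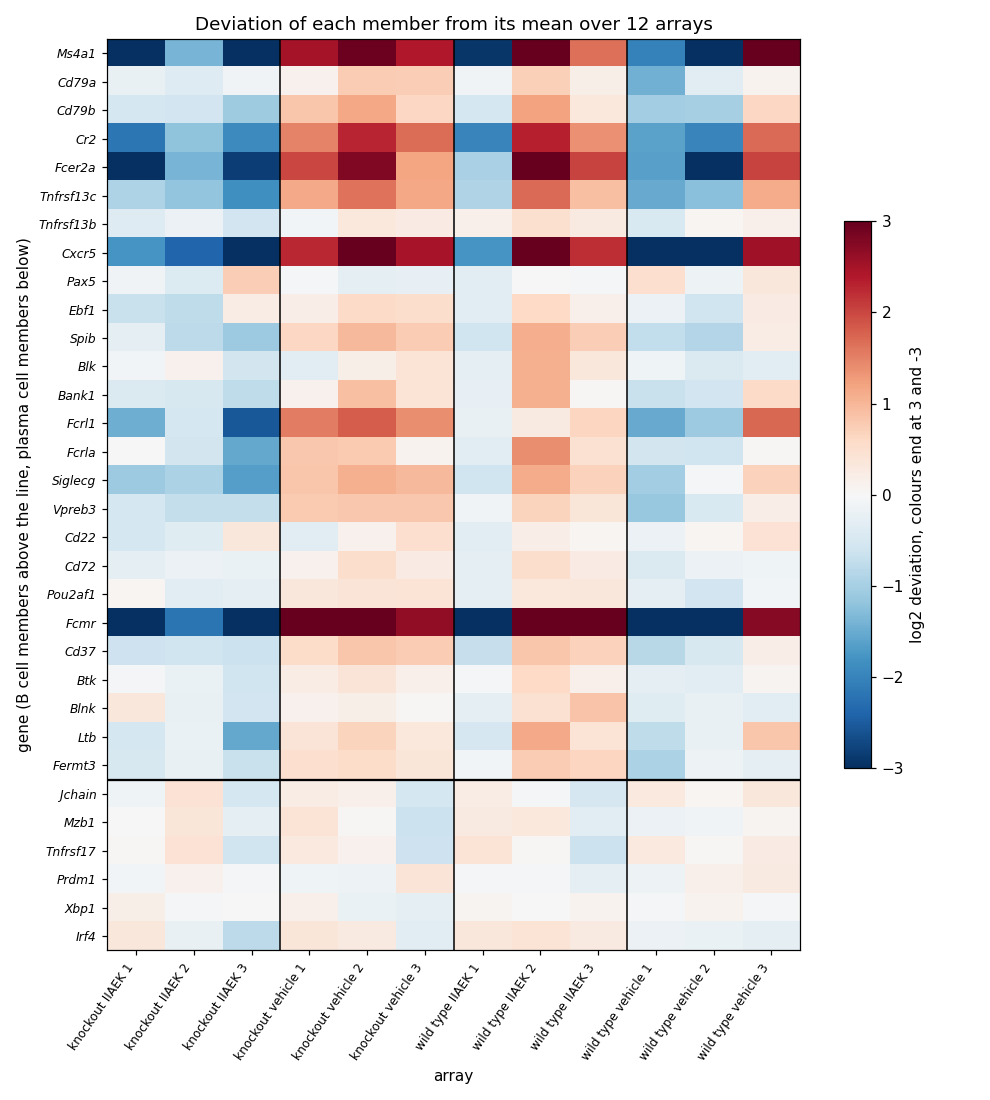
Deviation of each of the 32 members (rows) from its own mean over 12 arrays (columns, 3 per group), on a log2 scale whose colours end at 3 and -3. Most of the B cell members above the line are red on the 3 knockout vehicle arrays and blue on the 3 knockout IIAEK arrays, both wild-type groups hold red and blue columns, and the 6 plasma cell members below the line are pale.

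On vehicle, most B cell members had a higher mean in knockout than in wild-type jejunum. Vpreb3 was at 1.58, 1.62 and 1.61 in knockout, against -0.34, 0.35 and 1.01 in the arrays labelled wild type (1.26, SE 0.29). Fermt3 was at -2.41, -2.37 and -2.55, against -3.85, -3.06 and -3.18 (0.92, SE 0.25). Neither gene overlapped between genotypes, and without the array labelled wild-type vehicle 3 the differences were 1.60 for Vpreb3 and 1.01 for Fermt3. Cr2, by contrast, overlapped, because the array labelled wild-type vehicle 3 was at 0.54, inside the knockout range of 0.32 to 1.13. Limma called 0 members (0% of all genes), with a smallest adjusted p of 0.428 among the members and 0.320 over all genes. At an unadjusted p under 0.05, 15 B cell members and 0 plasma cell members were higher in knockout, against 4.76% of all genes. Fcmr, Cxcr5 and Fcer2a are among the 15. They passed the filter only through the knockout vehicle arrays in which they were high, so their calls support nothing. Groups that did not overlap, with knockout higher, were found in 12 B cell members and 0 plasma cell members, against 10.2% of all genes, and 9 of the 12 were among the 15 (3.98% of all genes met both criteria). The median difference was 1.01 for the B cell members, -0.080 for the plasma cell members and -0.034 over all genes. Without the array labelled wild-type vehicle 3 the count was 20 and the median 1.25. The count was 5 without wild-type vehicle 1, 7 without wild-type vehicle 2 and 6 without knockout vehicle 2.

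On IIAEK, most B cell members had a lower mean in knockout than in wild-type jejunum. Siglecg was at -4.78, -4.65 and -5.35 in knockout, against -4.29, -2.59 and -3.00 in wild type (-1.63, SE 0.46), and Tnfrsf13b was at -2.81, -2.61 and -3.01, against -2.27, -1.95 and -2.14 (-0.69, SE 0.19). Both genes were lower on every knockout array, though only 1 of those arrays had Siglecg well above background. Fcmr was at least 6.93-fold lower in knockout, Fcer2a at least 4.88-fold and Cxcr5 at least 4.17-fold, where 2 of the 3 wild-type arrays measured each. These bounds hold for the processed signal. Normexp background correction gave smaller decreases, at log2 differences of -2.06 for Fcmr, -1.15 for Fcer2a and -1.19 for Cxcr5. The bounds also rested on single arrays. Without wild-type IIAEK 2 they were at least 2.80-fold for Fcmr, 2.69-fold for Fcer2a and 2.16-fold for Cxcr5, without wild-type IIAEK 3 at least 3.41-fold, 3.91-fold and 2.90-fold in the same order, and within slide 1 neither genotype had any of these genes well above background. Limma called 0 members (0% of all genes), with a smallest adjusted p of 0.619 among the members and 0.155 over all genes. At an unadjusted p under 0.05, 16 B cell members and 0 plasma cell members were lower in knockout, against 2.97% of all genes. Among the 16 are Fcmr, Cxcr5 and Fcer2a. They passed the filter only through the knockout vehicle arrays in which they were high, so their calls support nothing. In 9 of the 16, Fcer2a among them, and in 0 plasma cell members, the groups did not overlap. Over all genes the share was 3.44% without overlap and 1.73% for both criteria. The median difference was -0.92 for the B cell members, -0.0011 for the plasma cell members and 0.030 over all genes. Within slide 1 it was -0.040 for the B cell members and within slide 2 it was -1.38, and slide 1 held the wild-type IIAEK array that was low in Ms4a1. Within slide 1 the difference turned its sign in 10 of the 25 tested B cell members, among them Ms4a1, at 0.64 there and -3.15 over all arrays. The count was 4 without wild-type IIAEK 2, 7 without wild-type IIAEK 3 and 6 without knockout IIAEK 3. The comparisons of this section share groups, so their values are not independent of each other.

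Genes outside the members were read from lists chosen with earlier results of these data known. In knockout mice, IIAEK against vehicle, 2.29% of all genes were lower at an unadjusted p under 0.05. At that threshold germinal centre genes had 6 of 14 tested genes lower and 0 higher, with a median of -0.42. They included Nuggc at -0.92 and Il21r at -0.87. Genes of B cell receptor signalling had 6 of 19 lower and 0 higher (median -0.32), among them the kinase Syk at -0.79 and the phosphatase Inpp5d at -0.66. Other B lineage genes had 4 of 24 lower and 0 higher (median -0.16), among them the chemokine receptors Ccr6 at -1.97 and Ccr7 at -2.60. Class II genes had 3 of 8 lower and 0 higher (median -0.58), namely H2-Ob at -2.04, H2-Oa at -1.42 and Ciita at -0.84. No gene of these lists passed the adjustment over all genes in the fit of 12 arrays. The secretory machinery of plasma cells had 1 of 17 lower and 0 higher (median -0.089), the gene being the chemokine receptor Cxcr4 at -1.44, and IgA transport and homing genes had 0 of 6 in either direction (median 0.056).

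Among markers of follicle stroma, 3 of 10 were lower and 0 higher at an unadjusted p under 0.05 in knockout mice, IIAEK against vehicle, with a median of -0.92. In that comparison and at that threshold 2.29% of all genes were lower, and 4.63% differed in either direction. Ccl19, a chemokine of the T cell zone, differed by -2.83 (SE 1.05), Mfge8, a product of follicular dendritic cells and other cells, by -1.06 (SE 0.34), and Lta, a lymphotoxin that B cells also make, by -1.59 (SE 0.65). Cxcl13, the chemokine that draws B cells into follicles and named here after its values were seen, was at -1.28, -0.36 and 1.88 on IIAEK, against 0.41, 1.43 and 1.46 on vehicle (-1.02, SE 0.83). It overlapped, and its highest level of all arrays was on knockout IIAEK 3, an array low in Ms4a1. The median deviation of the 12 stroma genes on each array was between -0.66 and -0.47 on the 6 arrays low in Ms4a1 and between 0.23 and 0.92 on the 6 high arrays. Their summed signal, relative to the 75th percentile, ran from 31.0 to 43.3 in knockout IIAEK, 49.5 to 62.9 in knockout vehicle, 35.5 to 69.4 in wild-type IIAEK and 34.9 to 50.7 on the arrays labelled wild-type vehicle. The part of tissue sampling in the member results was not tested. T cell genes had 4 of 23 lower (Tcf7 at -0.75, Lef1 at -0.99, Cd2 at -1.26 and Ccr7), while the pan T cell gene Cd3e was at 1.32, 1.38 and 0.95 on IIAEK, against 1.35, 1.42 and 1.70 on vehicle. Summed T cell signal was 153 to 236 on knockout IIAEK arrays, 151 to 192 on knockout vehicle arrays, 116 to 175 on wild-type IIAEK arrays and 163 to 258 on those labelled wild-type vehicle. No marker of the enterocyte list differed in knockout at an unadjusted p under 0.05 (0 of 13). Of 10 Paneth and goblet cell markers, 3 were higher on IIAEK in knockout at that threshold and 0 lower (median 0.16), namely Agr2, a protein of the goblet cell endoplasmic reticulum, at 0.45, the protease Mmp7 at 0.92 and the antimicrobial ribonuclease Ang4 at 1.23.

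**Figure D4:**
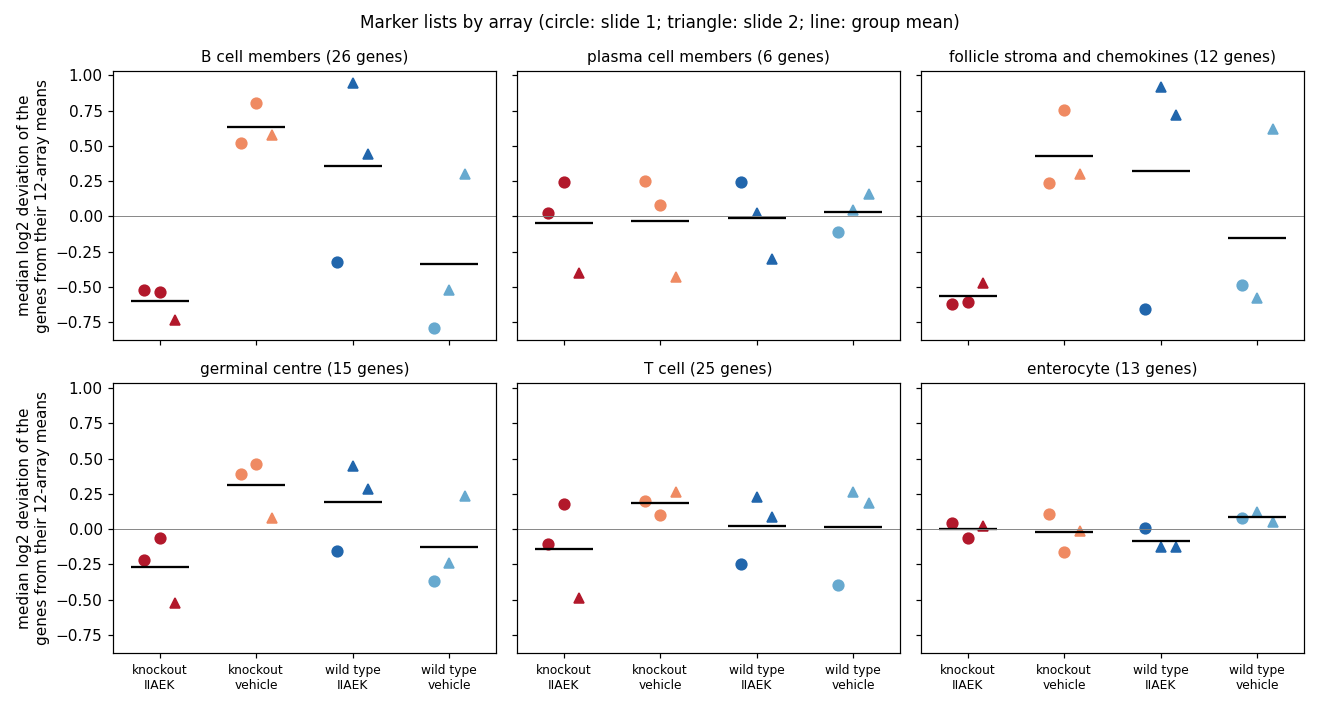
Median log2 deviation of the genes of a list from their 12-array means (y axis) for 6 lists on each array, by group (x axis), with circles for slide 1, triangles for slide 2 and lines for group means. The follicle stroma median is above 0 on the same 6 arrays that were high in Ms4a1 and below 0 on the other 6, whereas plasma cell and enterocyte lists do not separate those arrays.

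Pancreas genes were high on 2 arrays that were also high in Ms4a1. Their median deviation was 8.50 on wild-type IIAEK 3 and 4.40 on knockout vehicle 3, and between -2.85 and 1.16 on the other 10 arrays. Summed pancreas signal was 38.4 to 44.2 in knockout IIAEK, 31.3 to 269.7 in knockout vehicle, 39.0 to 3270 in wild-type IIAEK and 31.2 to 63.3 on the arrays labelled wild-type vehicle. Without these 2 arrays the median difference of the B cell members in knockout was -1.30 and 18 of them were lower at an unadjusted p under 0.05. Among the plasma cell members, Jchain, Mzb1 and Tnfrsf17 were lowest on knockout IIAEK 3, knockout vehicle 3 and wild-type IIAEK 3, where Jchain was at 7.45, 7.44 and 7.47 and Tnfrsf17 at -0.76, -0.78 and -0.78. All other arrays were at 7.85 or above in Jchain and at -0.13 or above in Tnfrsf17. The other plasma cell members did not share this order, since Prdm1 had its highest level, 1.37, on knockout vehicle 3. Of all arrays, knockout IIAEK 3 had the lowest pancreas deviation, -2.85. The 3 arrays low in Jchain, Mzb1 and Tnfrsf17 lay on slide 2, which also held arrays not low in these genes.

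The genes outside the members whose levels followed Ms4a1 most closely over the 12 arrays included Bfsp2 (Pearson r = 0.98), Btla (0.97), H2-Eb2 (0.97), Colq (0.96), Chst3 (0.96), Rps6kl1 (0.96), Ccr6 (0.96) and Snn (0.96). The arrays form separate high and low sets, so r ranks the genes and measures no graded relation. Btla, an inhibitory receptor of B and T cells, was at -1.48, -0.62 and -1.53 in knockout IIAEK, against -0.05, 0.44 and 0.30 in knockout vehicle.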

How the data were processed

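The authors deposited 1 scanner table per mouse, made with Agilent Feature Extraction 10.7.3.1 per the file headers, whose processed signal is an intensity with background subtracted. They also deposited a table of log2 values whose scale, centring and direction are unstated, and which correlated at 0.99999 or above with log2 signals scaled to the 75th percentile and centred on each probe's median (column medians -0.0798 to 0.151). Here log2 of the processed signal minus each array's 75th percentile was used, without control spots and spots flagged as non-uniform, averaged over spots of a probe. Spots flagged as population outliers, 45 to 94 per array, were kept. Probes were named through RefSeq, which gave 32989 of 56605 probes a symbol, and the brightest probe stood for a gene. A gene was tested if some group had it well above background on each of its 3 arrays, which left 27565 genes, tested with limma 3.58.1 in R 4.3.3 over all 12 arrays, two-sided, with Benjamini-Hochberg adjustment at 0.05, after a test on simulated data. Replicates are separate mice per the labels. The number of arrays limits the precision. The members and lists were chosen with earlier results of these data known. Named genes were the 32 members, Akp3, up to 4 genes of smallest p per list and the 10 most like Ms4a1, some of which are not reported here. The alternatives were normexp background correction (offset 50, on median signals in place of the planned mean signals, which were not used here), quantile scaling, other filters, the mean of all probes, the deposited table, slide, replicate block, an intensity trend, fewer groups and leaving out each array. Counts without single arrays and without the 2 arrays of highest pancreas signal, bounds without single arrays and the knockout calls among genes detected on all 12 arrays were added after seeing the data.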

Additional observations from a re-analysis of the deposited data

Results flagged for a closer look

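Fermt3, an integrin activator of blood cells, had opposite directions in the genotypes without overlap between arrays: every knockout IIAEK array lay below every knockout vehicle array, and every wild-type IIAEK array lay above every array labelled wild-type vehicle. The difference in its change on IIAEK, knockout minus wild type, was -1.80 (SE 0.36) by limma's interaction term, with an adjusted p of 0.303, and -1.90 without the array labelled wild-type vehicle 3. Taken singly, the knockout pattern was found in 3.06% of all genes and the wild-type pattern in 10.7%. Of the 25 tested B cell members, 1 had the wild-type pattern, Fermt3. The share of all genes with both patterns was not computed. The cause was not tested.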

How the results depend on the processing

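No member passed the adjusted threshold on 12 arrays, so no call could turn. Signs of tested members turned most often within slide 1, in 12 of 31 for the genotypes on IIAEK and 6 of 31 for IIAEK in wild type, where Ms4a1 was at -0.89, against 1.30 on all arrays. The counts of genes passing the adjusted threshold, which were 0 in every comparison, were small elsewhere. For IIAEK in knockout they were 7 within slide 1, 18 within slide 2 and 14 with only the groups compared, of which 2, 0 and 7 were members. For IIAEK in wild type they were 1 with slide as a block, 1 within slide 1, 9 within slide 2 and 0 to 1 without single arrays (1 without wild-type IIAEK 1). For the interaction they were 1 with slide as a block and 4 within slide 2. For knockout against wild type on vehicle they were 20 within slide 1 (3 members), 11 within slide 2, 1 with only the groups compared and 0 to 2 without single arrays (2 without wild-type vehicle 3 or knockout vehicle 1). On IIAEK they were 1 with slide as a block, 41 within slide 2, 5 with only the groups compared and 0 to 3 without single arrays (3 without wild-type vehicle 3, 2 without wild-type IIAEK 1 or knockout vehicle 1). Under normexp the median of the B cell members was -0.85 for IIAEK in knockout, 0.41 in wild type, -1.21 for the interaction, 0.58 for the genotypes on vehicle and -0.56 on IIAEK, and in knockout Ms4a1 was at -3.60 and Siglecg at -0.84. That median was 1.49 for the genotypes on vehicle within slide 1, and -0.040 and -1.38 for the genotypes on IIAEK within slides 1 and 2. That of the plasma cell members was -0.46 for the genotypes on vehicle within slide 2, and -0.21 for the interaction without the 2 arrays of highest pancreas signal. Where a slide left 1 array in a group, it was assumed to vary like the others. B cell members at an unadjusted p under 0.05 numbered 14 to 22 for IIAEK in knockout without single arrays, 1 to 17 in wild type, 20 to 23 for the interaction, 5 to 20 for the genotypes on vehicle and 4 to 22 on IIAEK. Without the 2 pancreas arrays they numbered 1 in wild type and 7 for the genotypes on IIAEK. For these counts the share of all genes was not computed. The cause of these shifts was not tested. With the replicate block the counts of genes stayed at 0 and the median in knockout at -1.23; of 18 pairs of arrays with the same number, 8 had deviations correlated above 0.1 (range -0.25 to 0.35), so the number was not taken as a pairing. Among single members, 12 values in other settings passed the threshold that they missed on 12 arrays. Probes near background give only bounds, which hold for the processed signal.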
